A study of Rattus norvegicus with 2 samples.

Results

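The Ccn3 and Rspo3 fibroblasts are collagen-expressing cells from rat optic nerve in which the genes Ccn3, Rspo3, Tnmd and Cpxm2, scored together, stood higher than 3 other fibroblast gene sets. Cells were kept with at least 500 detected genes and at most 20% of their unique molecular identifiers (UMIs, each a counted RNA molecule) from mitochondrial genes. They counted as fibroblasts with at least 500 CPM (counts per 1000000 UMIs) of Col1a1, Col3a1, Dcn and Lum together, under 500 CPM of the astrocyte genes Gfap, Fabp7 and Aqp4 together, and under 300 CPM of the cell division genes Top2a, Mki67, Ube2c and Cenpf together. Each of the 16 set genes was then expressed as a Z-score over all such cells, and a cell joined the set with the highest mean. Of 4036 deposited barcodes, 3761 passed the filters, 2772 were fibroblasts and 814 were Ccn3 and Rspo3 fibroblasts. The other sets were Actg2, Penk, Car3 and Mfap5 with 626 cells, Cldn11, Thbd, Nkd2 and Tgm2 with 785 cells, and Inmt, Cyp26b1, Gjb2 and Vcam1 with 547 cells. Because these values chose the cells, the levels of the 16 genes below are a description and not a result.

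The cells came from mixed primary glial cultures, prepared from the optic nerve of Nuc1 rats and of Sprague Dawley rats as WT, and each genotype gave 1 droplet library. Nuc1 rats carry a spontaneous insertion in Cryba1, the gene of βA3/A1-crystallin, and both samples were labelled as optic nerve of postnatal day 7. The sample labels do not mention culture, which comes from the series title and the study's methods, and the days in culture were not given in the sources used here. How many rats gave each library was not given in the sources used here. With 1 library per genotype no test between genotypes was possible, the intervals below are exact 95% intervals that cover counting error only, and genotype, culture and library cannot be told apart.

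Fibroblasts of the optic nerve lie in its meningeal sheath and around its vessels, where they lay down collagen and other matrix and secrete growth factors. Ccn3 is a secreted matricellular protein of the CCN family, and Rspo3 is a secreted R-spondin that strengthens Wnt signalling by sparing Frizzled receptors from removal at the cell surface. Tnmd (tenomodulin) is a membrane glycoprotein best known from tendon and ligament, and Cpxm2 is a secreted carboxypeptidase-like protein.

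The libraries had similar depth, with 34517542 UMIs over 2107 WT barcodes and 35794685 UMIs over 1929 Nuc1 barcodes. The Ccn3 and Rspo3 fibroblasts numbered 662 in WT and 152 in Nuc1. They held 9061788 and 2402263 UMIs, with a median of 11774 UMIs per cell in WT and 14452 in Nuc1. A doublet caller marked 7 WT and 13 Nuc1 cells and 0 of the Ccn3 and Rspo3 fibroblasts. 2 barcodes occurred in both libraries, 1 of them in these cells. Cryba1 had 0 UMIs in them in both libraries, so the genotype labels could not be checked on this gene.

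Fibroblast genes that the gate did not use were present. Bgn, a collagen-binding proteoglycan, was measured at 1694 CPM in WT and 1976 CPM in Nuc1, and Pdgfra, a growth factor receptor of fibroblasts, at 103 and 154 CPM. In the astrocyte-gated cells Bgn was at 223 and 90.9 CPM and Pdgfra at 63.4 and 2.75 CPM. Col1a2, the other chain of type I collagen, was low in the members at 26.0 and 10.0 CPM. In the astrocyte-gated cells it was at 3.75 and 0.741 CPM. The other fibroblast types had 19.7 to 24.0 CPM of Col1a2 in WT and 8.41 to 13.9 CPM in Nuc1. Of 22 fibroblast markers of connective tissue sheaths, 1 had 0 UMIs in the WT members and 7 in the Nuc1 members. The Nuc1 members held fewer UMIs, so a floor of 3 counts was 1.25 CPM there and 0.331 CPM in WT. Summed over the 22 markers, the level was 1020 CPM in WT and 1043 CPM in Nuc1. Markers of other cells were low. The summed level of 3 endothelial markers was 0.110 CPM in WT and 0.416 CPM in Nuc1, with Cldn5 at 0 in both, and that of 4 Schwann cell markers was 0.110 and 0 CPM, with Sox10 at 0 in both. The 5 macrophage or microglia markers summed to 2.87 and 0.416 CPM, with Csf1r and Ptprc at 0 in both libraries, and the 4 erythroid markers to 0 and 0.416 CPM. Summed levels were 0.993 and 1.67 CPM for 4 mural cell markers (Kcnj8 and Abcc9 at 0), 2.43 and 0.833 CPM for 4 skeletal muscle markers, 0.993 and 2.08 CPM for 2 markers of motile cilia, 12.7 and 3.33 CPM for 4 chondrocyte markers (Acan and Matn1 at 0), and 16.2 and 7.91 CPM for 4 osteoblast markers, nearly all of it Runx2. 6 oligodendrocyte lineage markers summed to 23.6 CPM in WT and 12.9 CPM in Nuc1, with Mog and Olig2 at 0. Of the 11 marker groups, that of astrocytes had the highest sum in Nuc1: all 5 markers were detected, their sum was 22.5 CPM in WT and 66.2 CPM in Nuc1, and Gfap was at 5.41 and 17.5 CPM. In the other fibroblasts the same sum lay between 17.9 and 95.4 CPM in WT and between 50.9 and 68.2 CPM in Nuc1. The part of astrocyte RNA in the genotype differences below was not tested.

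Ccn3 was at 3454 CPM in the WT cells and 1506 CPM in the Nuc1 cells. In WT the next level was 1644 CPM in the Cldn11 and Thbd fibroblasts, and in Nuc1 it was 704 CPM in the same fibroblasts. Rspo3 was at 217 and 163 CPM, against at most 61.9 CPM in any other WT type and 56.0 CPM in any other Nuc1 type. Cpxm2 was at 353 CPM in WT and 206 CPM in Nuc1, against 118 and 96.6 CPM in the Cldn11 and Thbd fibroblasts, and was at 9.76 and 12.3 CPM in the Inmt and Cyp26b1 fibroblasts. Tnmd was at 731 and 717 CPM, and the Actg2 and Penk fibroblasts followed at 468 and 560 CPM, so that Tnmd marked both types more than either of the remaining ones.

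Igfbp5 and Shisa3, named as further markers but not used to choose the cells, did not single them out in Nuc1. Igfbp5, a secreted binding protein of insulin-like growth factors, was at 2639 CPM in the WT cells and 1849 CPM in the Nuc1 cells. The Cldn11 and Thbd fibroblasts had less in WT (1792 CPM) and more in Nuc1 (2733 CPM). Shisa3, a membrane protein that holds back Wnt and FGF receptors, was at 1460 CPM in WT, above the 1192 CPM of the Cldn11 and Thbd fibroblasts. In Nuc1 it was at 762 CPM (727.7 to 797.9), and the Cldn11 and Thbd fibroblasts were at 789 CPM (770.0 to 808.5), intervals that overlap.

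**Figure D1:**
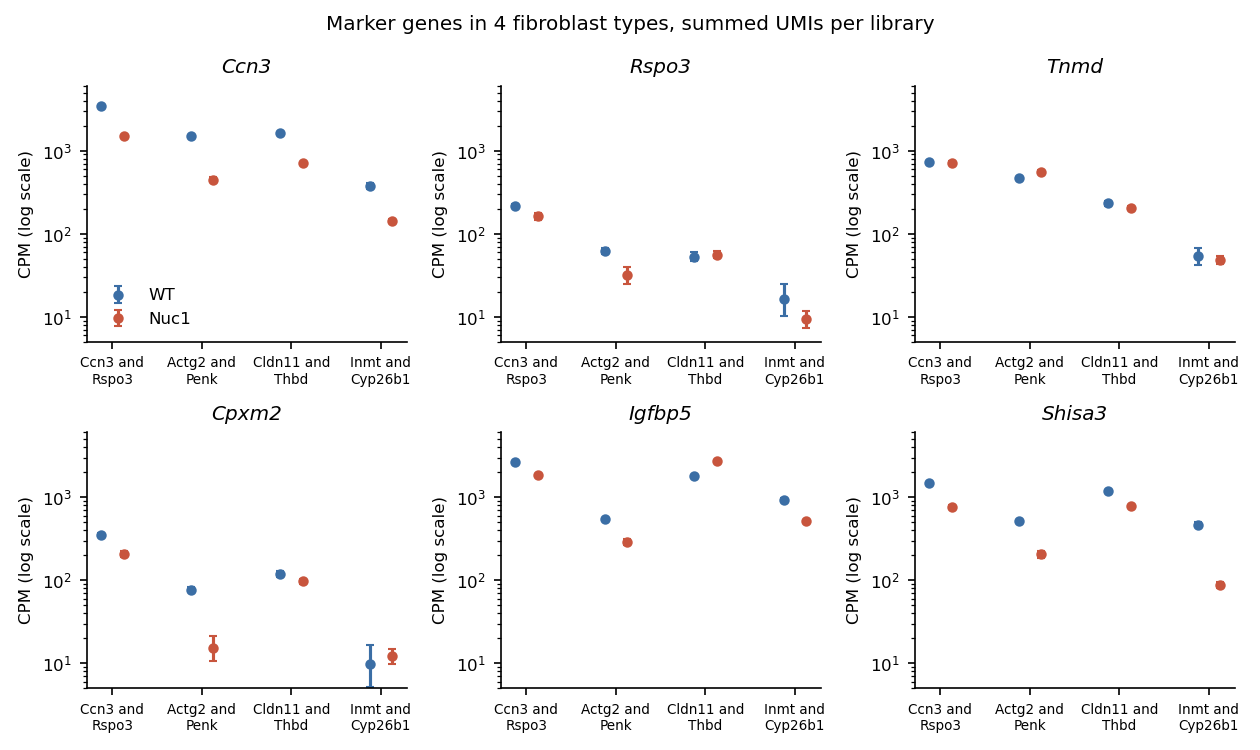
CPM of summed UMIs (log axis) of the 6 markers in 4 fibroblast types, WT in blue and Nuc1 in red, with exact 95% Poisson intervals for counting error. Ccn3, Rspo3, Tnmd and Cpxm2, which chose the cells, are highest in the Ccn3 and Rspo3 type in both libraries, whereas Igfbp5 at 2733 CPM and Shisa3 at 789 CPM are highest in the Cldn11 and Thbd type of Nuc1.

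By cell, Rspo3 was detected in 86.6% of the 662 WT cells and 80.3% of the 152 Nuc1 cells, and after each cell was thinned to 5000 UMIs in 60.4% (56.5 to 64.2) and 52.0% (43.7 to 60.3). The 8 WT and 4 Nuc1 cells under that depth were left out. In the astrocyte-gated cells, which should lack it and were deeper (median 22836 UMIs in WT and 21559 in Nuc1), Rspo3 was found in 5.77% and 0.985% unthinned. Cpxm2 was detected in 74.2% of the thinned WT cells and 55.4% of the thinned Nuc1 cells, against 1.33% and 1.52% of thinned astrocyte-gated cells. Tnmd had thinned shares of 89.8% and 82.4%, against 1.33% and 0.253%. Ccn3 was found in 97.9% and 91.2% of the thinned cells, but also in 15.3% and 19.7% of thinned astrocyte-gated cells. All 4 genes were seen together in 492 WT cells (74.3%) and 88 Nuc1 cells (57.9%), in 40.1% and 17.6% after thinning, and in 0 of 156 WT and 0 of 406 Nuc1 astrocyte-gated cells.

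The type was a range rather than a separate group. Each cell has a lead, the mean Z-score of its Ccn3, Rspo3, Tnmd and Cpxm2 minus the highest mean of the other sets, in units of the standard deviation. The median lead was 0.61 in WT and 0.34 in Nuc1. Of the members, 276 WT cells (41.7%) and 100 Nuc1 cells (65.8%) led by under 0.5, and 158 and 12 led by 1 or more. Within 0.5 on either side of the boundary lay 558 of 1576 WT fibroblasts (35.4%) and 291 of 1196 Nuc1 fibroblasts (24.3%). The 5 cells just inside had leads of 0.0012 to 0.0058 in WT and 0.0023 to 0.026 in Nuc1. The 5 cells just outside fell short by 0.0010 to 0.0029 in WT and by 0.0038 to 0.034 in Nuc1. No gap separated the members from the rest in either library.

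**Figure D2:**
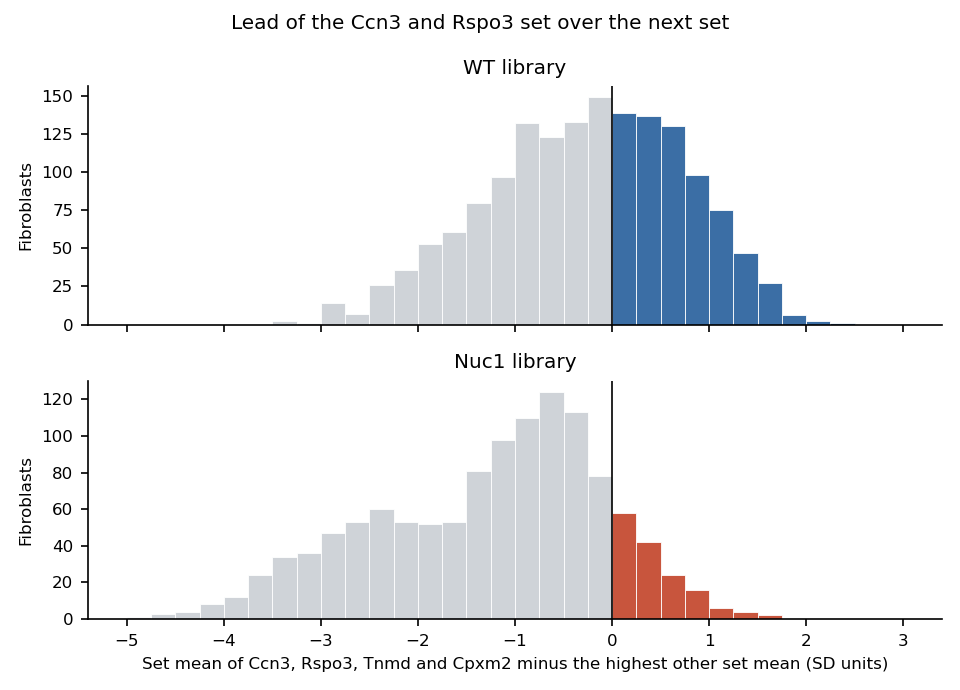
Number of fibroblasts (vertical axis) by lead of the Ccn3, Rspo3, Tnmd and Cpxm2 set mean over the highest other set mean (horizontal axis, SD units), WT above and Nuc1 below, with members in colour and other fibroblasts in grey. Counts run across the boundary at 0 without a gap, and 12 of 152 Nuc1 members lead by 1 or more, against 158 of 662 WT members.

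The second set of each member differed between the libraries. In WT the Actg2 and Penk set came second in 391 cells, the Cldn11 and Thbd set in 236 and the Inmt and Cyp26b1 set in 35. In Nuc1 the Cldn11 and Thbd set came second in 90 of 152 cells, and the other sets in 31 cells each. Genes of the neighbouring sets were present in the members at intermediate levels. Penk, the precursor of enkephalin peptides, was at 783 CPM in WT members with the Actg2 and Penk set second and at 340 CPM in those with the Cldn11 and Thbd set second. Cldn11, a tight junction protein of meningeal barrier cells, went the other way, at 306 and 580 CPM. Actg2, the smooth muscle actin that leads the contractile fibroblasts, stayed at 33.8 and 9.86 CPM, against 871 CPM in the WT Actg2 and Penk fibroblasts. Igfbp5 was highest, at 6013 CPM, in the 35 WT members nearest to the Inmt and Cyp26b1 set. Inmt itself, a methyltransferase, had 0 UMIs in the WT members (up to 0.331 CPM at 3 counts) and 3 UMIs in the Nuc1 members.

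By share, the Ccn3 and Rspo3 fibroblasts were 42.0% (39.6 to 44.5) of WT fibroblasts and 12.7% (10.9 to 14.7) of Nuc1 fibroblasts. These shares are a description, because the genes of the rule define the type. Ccn3, which helps to define it, was itself lower in Nuc1 in each of the 4 fibroblast types. In Nuc1 and WT it was at 448 and 1494 CPM in the Actg2 and Penk, 704 and 1644 CPM in the Cldn11 and Thbd and 143 and 373 CPM in the Inmt and Cyp26b1 fibroblasts. With Ccn3 left out of the set, the shares were 39.4% in WT and 14.7% in Nuc1. With Z-scores taken within each library, the shares were 34.7% and 25.1%. With a lead of at least 0.5, they were 24.5% and 4.35%. The size of the difference thus moved by over 1.5 times with the way the set means were scaled.

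Each of the 4 genes was also measured in cells chosen by the other 3. Left out of its own set, Ccn3 was at 3176 CPM in the WT cells chosen without it, 1.72-fold (1.68 to 1.76) above the next type, and at 1129 CPM in the Nuc1 cells, 1.52-fold (1.45 to 1.59) above. Rspo3 was 2.51-fold (2.30 to 2.76) above the next type in WT and 1.58-fold (1.36 to 1.83) above in Nuc1. Cpxm2 was 1.94-fold (1.79 to 2.10) and 1.41-fold (1.24 to 1.59) above. Tnmd was 1.34-fold (1.29 to 1.39) above the Actg2 and Penk fibroblasts in WT and below them in Nuc1, at 527 against 618 CPM. Between 79.0% and 96.6% of the cells chosen by 3 genes were also members by all 4, and the 4 genes were picked together on these data, so these values are a description.

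Outside the rule, few genes set the type apart. Of 2574 genes with at least 50 CPM in the members of each library, 193 were highest there in both libraries, and 3 (0.117%) were at least 2-fold above the highest other type in both. These were Ccn3, Rspo3 and Cpxm2, which chose the cells. The next were 3 genes at least 1.5-fold above in both libraries. Slc5a6, a transporter of biotin and pantothenate, was at 174 CPM in WT and 79.5 CPM in Nuc1, 1.70-fold and 1.92-fold above the next type. Adamtsl3, a matrix protein of the ADAMTS-like family, was at 169 and 66.2 CPM, 1.65-fold and 2.08-fold above. Fmo1, a flavin monooxygenase, was at 95.6 and 97.4 CPM, 1.62-fold and 1.78-fold above. Other genes led in both libraries but by under 1.5-fold in at least 1 of them. Atp1b1 (264 and 171 CPM), a sodium pump subunit, was 2.07-fold above the next type in WT and 1.41-fold in Nuc1. Mmp16 (54.1 and 50.4 CPM), a membrane-bound metalloproteinase, was 1.40-fold and 2.09-fold above. Slit2 (785 and 561 CPM), a secreted axon guidance ligand of Robo receptors, was 1.47-fold and 1.34-fold above. The other genes among the 20 with the largest lead, taken as the smaller of the folds in the 2 libraries, were Tspan8, Pkdcc, Slc12a2, Tspan6, Rasgrp2, Tnmd, Msln, Slc38a2, Tnfaip6, Arhgap20 and Igfbp6, each at most 1.39-fold above the next type in at least 1 library.

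The nearest relatives were compared gene by gene. Each comparison covered genes with at least 100 UMIs over the types compared in each library, and a gene counted when it was at least 2-fold higher or lower in both. Over the Actg2 and Penk fibroblasts, 53 of 5085 genes (1.04%) were higher and 48 (0.944%) lower, 5 of these 101 being genes of the rule. Examples below were chosen after their values were seen. The genes lower in the members were led by contractile genes. Acta2, smooth muscle actin, was at 13.8 against 325 CPM in WT and 6.24 against 121 CPM in Nuc1. Tagln was at 356 against 3108 CPM in WT and 401 against 2622 CPM in Nuc1, and Cnn1 (calponin) and Myl9 (a myosin light chain) stood lower in both libraries as well. Higher in the members, beside Igfbp5 and Shisa3, were the complement genes C1s (226 against 54.2 CPM in WT, 208 against 47.8 CPM in Nuc1) and Serping1, which inhibits C1s (65.8 against 17.4 CPM and 158 against 23.4 CPM). Ptn, a heparin-binding growth factor that promotes neurite growth, was at 1406 against 559 CPM in WT and 1144 against 364 CPM in Nuc1.

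Against the Cldn11 and Thbd fibroblasts the members differed least, with 14 of 7397 genes (0.189%) higher and 26 (0.351%) lower in both libraries, 7 of these 40 being genes of the rule. Avpr1a, a vasopressin receptor, was at 39.6 against 9.25 CPM in WT and 94.1 against 15.3 CPM in Nuc1. Tnfrsf11b (osteoprotegerin), a secreted decoy receptor, was at 139 against 54.5 CPM and 84.5 against 21.0 CPM. Lower in the members was Axin2, a feedback inhibitor that Wnt signalling induces, at 7.17 against 37.0 CPM in WT and 9.57 against 25.4 CPM in Nuc1. Bmp7, a secreted BMP ligand (4.30 against 16.3 CPM in WT, 9.57 against 25.7 CPM in Nuc1), and the Wnt5a receptor Ror1 were also lower.

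The Inmt and Cyp26b1 fibroblasts were the most distant, with 101 of 7065 genes (1.43%) higher and 190 (2.69%) lower in the members. Apod, a lipid carrier, was at 0.441 against 128 CPM in WT and 8.33 against 600 CPM in Nuc1, and Aldh1a2, the enzyme that makes retinoic acid in meninges, at 0.441 against 103 CPM and 2.498 against 136 CPM. Sfrp1, a secreted Wnt inhibitor, was at 3.75 against 238 CPM and 11.2 against 383 CPM. On the higher side were Tspan8 (297 against 10.5 CPM and 108 against 6.54 CPM), Epyc, a small leucine-rich proteoglycan (842 against 90.1 CPM and 235 against 17.2 CPM), the guidance ligand Sema3d (534 against 62.3 CPM and 667 against 63.2 CPM) and mesothelin, Msln (392 against 45.8 CPM and 296 against 29.8 CPM). Slit2, Aspn and Igfbp6 stood higher too.

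Whole profiles without the rule and gate genes were compared as well. For each cell the 20 nearest cells of its own library were found in 20 principal components of 2000 variable genes. Around WT members, 73.1% of the neighbours were members, against 42.0% of all WT fibroblasts. Actg2 and Penk fibroblasts made up 14.7%, against 33.9% of all, and Cldn11 and Thbd fibroblasts 11.8%, against 18.4%. Around Nuc1 members, 37.3% were members, against 12.7% of all Nuc1 fibroblasts, and 49.2% were Cldn11 and Thbd fibroblasts, against 41.4% of all. There Actg2 and Penk fibroblasts made up 8.75%, against 7.69% of all, and Inmt and Cyp26b1 fibroblasts 4.70%, against 38.2%. A majority of neighbours was of the own type for 561 WT cells (84.7%) and for 35 Nuc1 cells (23.03%). In both libraries members lay near each other more than their share. In Nuc1 their most frequent neighbour was a Cldn11 and Thbd fibroblast, which was also the most common type there.

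**Figure D3:**
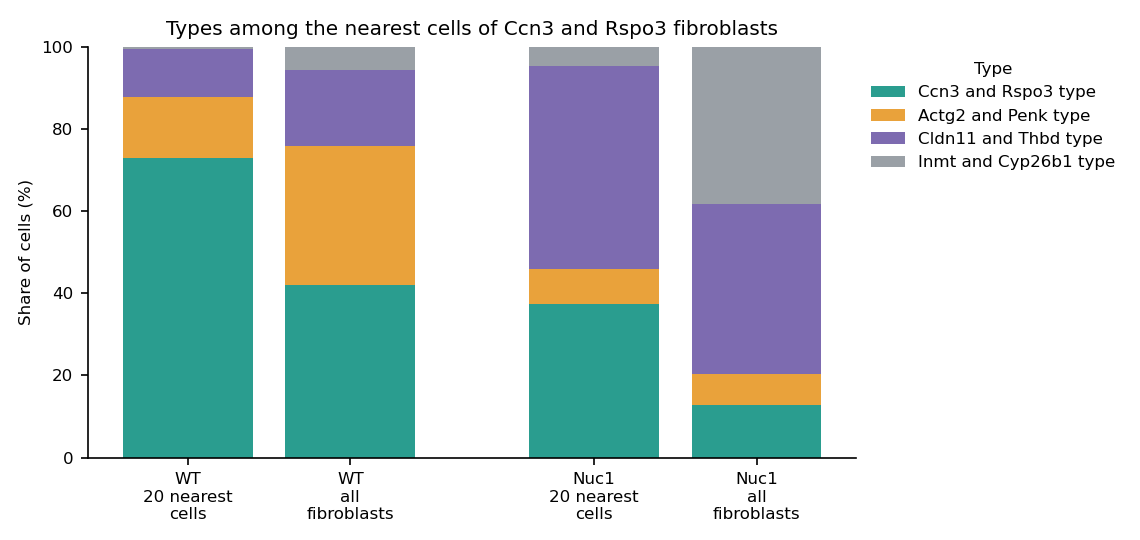
Share (%) of each fibroblast type among the 20 nearest cells of the Ccn3 and Rspo3 fibroblasts and among all fibroblasts of the same library, for WT and Nuc1, as stacked bars. Members make up 73.1% of the neighbours in WT and 37.3% in Nuc1, where Cldn11 and Thbd fibroblasts make up 49.2%, against 41.4% of all Nuc1 fibroblasts.

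Between genotypes, the members of the Nuc1 library were compared with those of the WT library on summed UMIs. Of 7598 genes with at least 100 UMIs over both, 78 (1.03%) were at least 2-fold higher in Nuc1 and 333 (4.38%) at least 2-fold lower. The WT members held 9061788 UMIs and the Nuc1 members 2402263. A gene low in Nuc1 thus passed this minimum at a lower CPM than a gene low in WT. This tilts the counts towards lower genes, and the size of the tilt was not tested. The median log2 ratio of Nuc1 over WT was -0.05, and the interval included 0 for 4823 genes. With the highest cell of each gene left out, 59 of the 78 and all 333 of the lower genes remained past 2-fold; 1 cell is a larger share of the 152 Nuc1 cells than of the 662 WT cells, so this step by itself moves ratios down. These differences also hold the difference in second sets described above. Among members with the Cldn11 and Thbd set second (236 and 90 cells), 47 of 5301 genes with enough UMIs were higher and 244 lower, and among those with the Actg2 and Penk set second (391 and 31 cells), 71 of 5979 were higher and 469 lower. Of 30 named genes with enough UMIs past 2-fold (genes of the rule, of the study, with the largest leads over other types or with the largest ratios), 27 remained so in the same direction in each of these subsets. Many were picked by their ratios in these cells, of which the subsets are parts, so this count is a description. How much of the genotype differences moves with the second sets was not tested. Male cells were unequally present, since Eif2s3y or Kdm5d, both on the Y chromosome, had UMIs in 1 WT member (0.151%) and 33 Nuc1 members (21.7%). In members without such UMIs, 79 genes were higher and 371 lower.

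**Figure D4:**
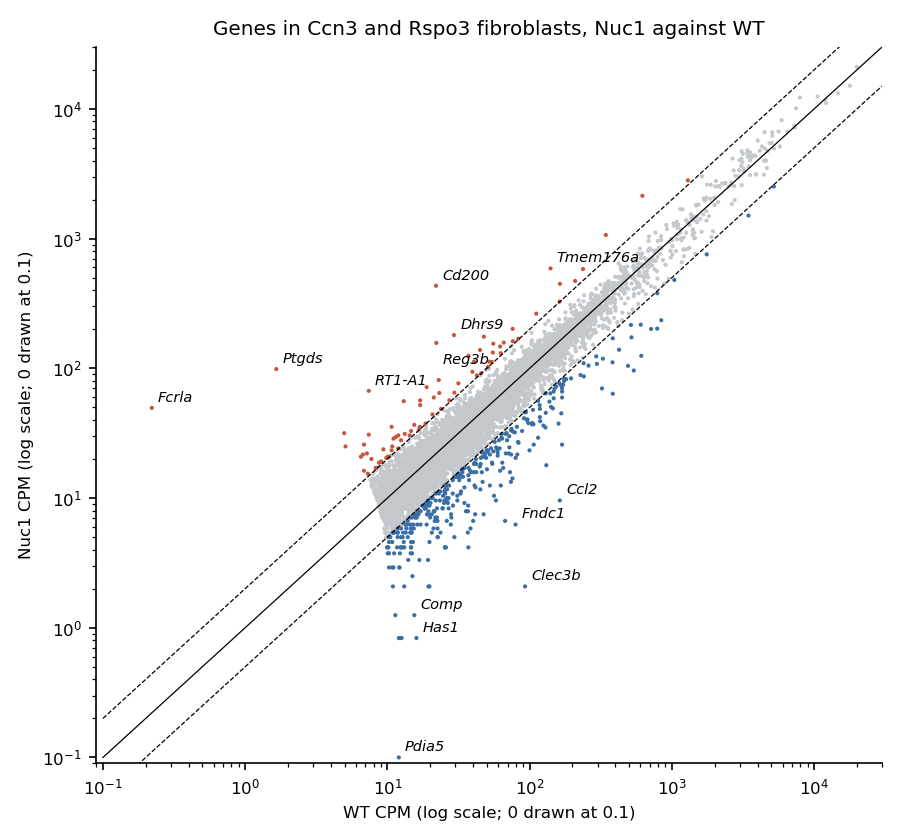
CPM in the Nuc1 members against CPM in the WT members for 7598 genes (both axes log, 0 drawn at 0.1), with the line of equality and dashed lines at 2-fold; red genes are at least 2-fold higher and blue genes at least 2-fold lower in Nuc1. Blue genes number 333 and red genes 78, and Clec3b, Ccl2 and Fndc1 lie far below the line and Cd200 far above it.

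Of the genes that chose the cells, Ccn3 had a log2 ratio of -1.20 (-1.25 to -1.15), Cpxm2 of -0.78, Rspo3 of -0.41 and Tnmd of -0.03 (-0.11 to 0.05). Ccn3 was lower in all 4 types, at -1.74 in the Actg2 and Penk, -1.22 in the Cldn11 and Thbd and -1.39 in the Inmt and Cyp26b1 fibroblasts. Tnmd alone of the 4 had an interval that included 0. Of the other sets, Mfap5, a microfibril protein, was at 539 CPM in WT and 96.2 CPM in Nuc1 (-2.49), with -2.59, -3.50 and -2.51 in the other types in the same order. Car3 (47.4 and 7.49 CPM), a carbonic anhydrase, and Nkd2 (72.7 and 15.8 CPM), an inhibitor of Wnt signalling, were lower. Tgm2 (44.8 and 138 CPM), a transglutaminase that cross-links matrix, and Gjb2 (22.9 and 81.2 CPM), a gap junction channel, were higher.

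The 10 genes furthest down in Nuc1 were Pdia5, Clec3b, Has1, Ccl2, Lrrc4c, Tfpi2, Fndc1, Comp, Rab21 and Wfdc1. Clec3b (tetranectin), a plasminogen-binding protein, was at 92.8 CPM in WT and 2.08 CPM in Nuc1, a log2 ratio of -5.42 (-7.11 to -4.25), detected in 340 WT and 5 Nuc1 cells. It was also lower in the other types, at -4.55, -5.22 and -3.92. Pdia5, a protein disulfide isomerase, had 109 UMIs in WT and 0 in Nuc1, at least 9.63-fold lower at a floor of 3 counts. The other types had lower Pdia5 in Nuc1 too, at -5.48, -4.56 and -4.13. Ccl2, a chemokine that attracts monocytes, was at 163 and 9.57 CPM (-4.08, -4.75 to -3.50), with -3.40 (-3.83 to -3.01) in the Cldn11 and Thbd fibroblasts and -0.33 in the Inmt and Cyp26b1 fibroblasts, and was higher in Nuc1 in the Actg2 and Penk fibroblasts (24.9 and 156 CPM). Fndc1, a fibronectin domain protein, was at 79.6 and 6.24 CPM (-3.65), and Rab21, a GTPase of endosomes, at 67.2 and 6.66 CPM (-3.32). Both were lower in the other types as well, Fndc1 at -3.89, -2.98 and -2.79 and Rab21 at -2.58, -2.28 and -2.19. Wfdc1 was at 19.8 and 2.08 CPM (-3.19), with 5 UMIs in Nuc1, and at -4.82, -2.75 and -1.46 in the other types. Has1 (hyaluronan synthase), Lrrc4c and Tfpi2 each had 2 UMIs in Nuc1 and 109 to 145 in WT, so that their ratios of -4.13 to -3.72 have wide intervals. In the other types the ratios of Has1, Lrrc4c and Tfpi2 were also below 0.

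The 10 genes furthest up were Fcrla, Ptgds, Cd200, RT1-A1, Reg3b, Mrvi1, Dhrs9, Mt3, Cxcl10 and Tmem176a. Cd200, a membrane glycoprotein that restrains myeloid cells, was at 22.0 CPM in WT and 433 CPM in Nuc1, a log2 ratio of 4.30 (4.08 to 4.53), found in 128 and 118 cells. It was higher in Nuc1 by 3.44 and 3.16 in the Actg2 and Penk and the Cldn11 and Thbd fibroblasts and stood at -0.48 in the Inmt and Cyp26b1 fibroblasts. Dhrs9, a retinol dehydrogenase, was at 29.3 and 180 CPM (2.61), and Tmem176a at 140 and 589 CPM (2.07). RT1-A1, a rat class I histocompatibility gene whose reads may be shared with near-identical copies, was at 7.39 and 67.0 CPM (3.17), with 3.36, 3.47 and 2.78 in the other types. Several of the 10 rested on few cells. Of 119 Nuc1 UMIs of Fcrla 46 were in 1 cell and all were in 5 cells, 199 of 237 UMIs of Ptgds were in 1 cell, and 100 of 134 of Cxcl10 were in 1 cell, without which its log2 ratio went from 2.09 to 0.29. Reg3b, a secreted lectin, was at 22.1 and 157 CPM (2.83) with 84 of 377 UMIs in 1 cell, and at 2.59, 2.93 and -0.70 in the other types. Mrvi1 (4.97 and 31.6 CPM) and Mt3 (5.08 and 24.98 CPM), a metallothionein known from the brain, were spread over 53 and 47 Nuc1 cells. The study lists Mt3 among its astrocyte markers, and the part of astrocyte RNA in its ratio was not tested.

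Counts of the gene lists below stand against 4.38% of all genes lower and 1.03% higher. Some lists hold genes that helped to choose the cells. Among these are Rspo3, Nkd2, Ccn3, Tnmd and Mfap5 of the rule, and Col1a1, Col3a1, Dcn and Lum of the gate. Counts and medians of those lists are a description. In the Wnt pathway, of 28 ligands and modulators, 10 had enough UMIs, 2 of them were at least 2-fold lower and 0 higher, 9 intervals lay below 0, and the median log2 ratio was -0.79 against -0.05 over all genes. Wnt16, a Wnt ligand, was at 37.1 CPM in WT and 4.16 CPM in Nuc1 (-3.13), and the receptor Kremen1, which helps Dickkopf proteins to inhibit Wnt signalling, at 25.6 and 11.7 CPM (-1.13). The R-spondins Rspo1, Rspo2 and Rspo3 had log2 ratios of -0.73, -0.78 and -0.41, and the inhibitors Sfrp4, Dkk3 and Shisa3 of -0.70, -0.80 and -0.94. Among 9 measured receptors and targets, 3 were at least 2-fold lower: Fzd1 (180 and 82.4 CPM), a Frizzled receptor, Lrp5 (19.2 and 8.74 CPM), its co-receptor, and Nkd2, a gene of the rule. Fzd2 was at 130 and 148 CPM, and Lgr4, the R-spondin receptor, at 9.71 and 12.1 CPM with an interval that included 0. Lgr5 had 5 and 1 UMIs and Lgr6 had 0 in both libraries.

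**Figure D5:**
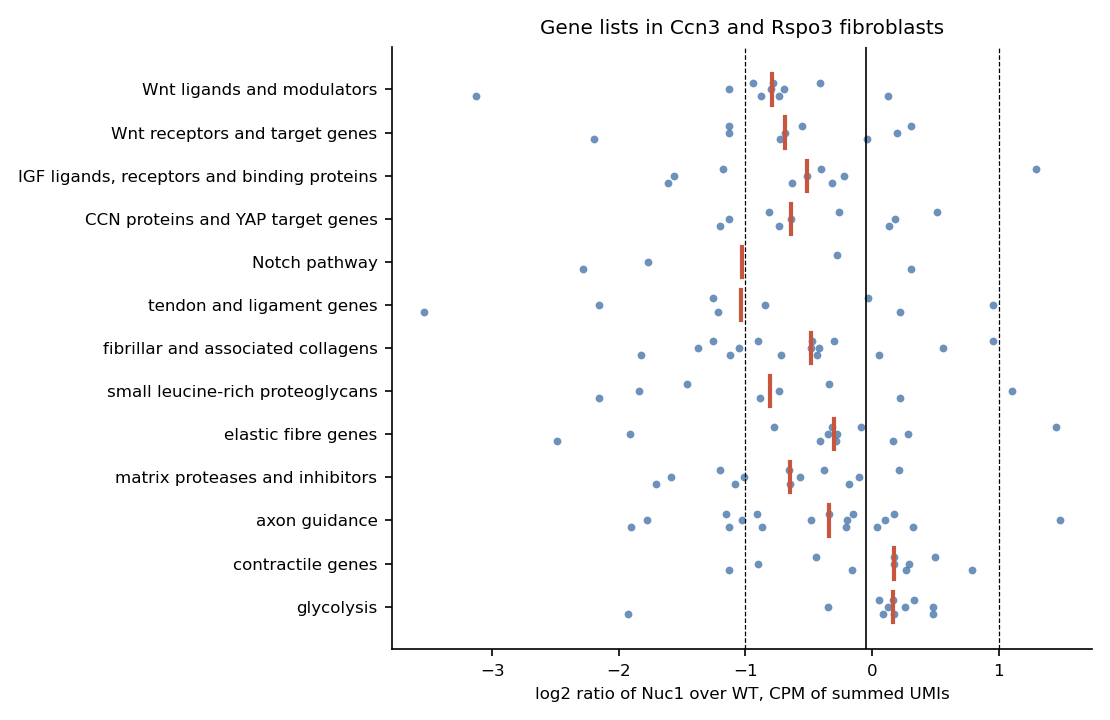
log2 ratio of Nuc1 over WT in the members (horizontal axis) for the measured genes of 13 lists, each point a gene and each red bar the list median, with dashed lines at 2-fold and a solid line at the median of all genes. The medians of the tendon and Notch lists lie furthest down, at -1.03 and -1.02, and those of the contractile and glycolysis lists lie at 0.17.

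Ligands and binding proteins of insulin-like growth factors (IGF) were mostly lower. Of 9 measured, 3 were at least 2-fold lower and 1 higher, with a median of -0.51. For 8 of the 9 the interval lay below 0, and for 1 above. Igf1, a growth factor, was at 425 CPM in WT and 139 CPM in Nuc1 (-1.61, -1.78 to -1.45), and its log2 ratio was -1.98 in the Actg2 and Penk, 0.07 in the Cldn11 and Thbd and 0.55 in the Inmt and Cyp26b1 fibroblasts. Igfbp3 (31.0 and 10.4 CPM) and Igfbp7 (384 and 170 CPM) were lower, and Igfbp4 (237 and 582 CPM), which binds and restrains the growth factors, was higher by 1.29 (1.20 to 1.39). Igf2 was at 538 and 408 CPM and Igfbp5 at -0.51. Among 9 CCN and YAP target genes, with a median of -0.64, 2 were at least 2-fold lower. These were Ccn3, a gene of the rule, and Ccn5 (240 and 109 CPM). Ccn1 and Ccn2, both induced by YAP, stood at -0.64 and -0.74, and Ccn4 at 0.52.

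In the Notch pathway 4 genes were measured and 2 were at least 2-fold lower. Hes1, a repressor that Notch induces, was at 609 CPM in WT and 125 CPM in Nuc1 (-2.28, -2.46 to -2.12), with -1.95, -2.47 and -2.19 in the other types, and the ligand Jag1 was at 74.2 and 21.6 CPM. The receptors Notch1 and Notch2 stood at 0.31 and -0.28. Of 16 genes of the TGF-β and BMP family, 1 was at least 2-fold lower (6.25%, near the 4.38% of all genes) and 0 higher (median -0.29): Id2, a target of BMP signalling, at 125 and 36.2 CPM. The ligands Tgfb1, Tgfb2 and Tgfb3 had log2 ratios of -0.22, -0.19 and -0.55.

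Of the genes of tendon cells, the transcription factors Scx and Mkx had 7 and 0 UMIs in WT and 0 and 0 in Nuc1, and Thbs4 had 2 and 0, whereas Bgn, Egr1, Tnc and Col12a1 were measured with Tnmd. Of 8 tendon genes with enough UMIs, 4 were at least 2-fold lower in Nuc1 and 0 higher (median -1.03). Comp, a cartilage and tendon matrix protein, was at 15.4 CPM in WT and 1.25 CPM in Nuc1 (140 and 3 UMIs), Fmod at 35.6 and 7.91 CPM and Col12a1 at 96.4 and 40.4 CPM. The fourth, Egr1 (1758 and 756 CPM), is also an immediate-early gene.

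Of 15 collagen genes, 5 were at least 2-fold lower, against 4.38% of all genes, and 0 higher (median -0.48). Col8a1, a short-chain collagen, was at 714 and 201 CPM (-1.83), Col1a1, of type I collagen, at 5209 and 2520 CPM (-1.05), and Col16a1 at 140 and 64.1 CPM; Col1a2 was also lower, at 26.0 and 10.0 CPM. Col3a1, at 2764 and 1983 CPM, stood at -0.48. Col1a1 and Col3a1 were part of the gate for fibroblasts. Of 8 small leucine-rich proteoglycans, which bind collagen fibrils, 3 were lower (Fmod, Epyc and Aspn) and 1 higher (median -0.81). That median rests on Dcn (1898 and 1031 CPM) and Lum (1218 and 731 CPM), which were also part of the gate. Epyc was at 842 and 235 CPM (-1.84, -1.97 to -1.72) with still lower ratios in the other types, at -2.42, -2.52 and -2.38, while Prelp was at 52.2 and 112 CPM (1.11). Of 11 basement membrane genes, 2 were lower, Col4a5 and Nid2, with a median of -0.66.

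Among 12 elastic fibre genes 2 were at least 2-fold lower, Mfap5, a gene of the rule, and Eln (elastin, 81.9 and 21.6 CPM). The 1 higher gene was Fbln1 (fibulin), at 163 CPM in WT and 448 CPM in Nuc1 (1.46, 1.34 to 1.57), and the median was -0.30. Of 12 matrix proteases and inhibitors, 5 were lower and 0 higher (median -0.65): Adamts1, Adamts2, Adamts9, Htra1 and Reck, all but Reck being proteases. Mmp2, a gelatinase, was at 232 and 204 CPM, and the inhibitor Timp1 at 1214 and 821 CPM.

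Of 17 axon guidance genes, 5 were at least 2-fold lower in Nuc1 and 1 higher (median -0.34), against 4.38% and 1.03% of all genes. The receptor Plxna2 (41.6 and 12.1 CPM), the ephrin Efnb2 (20.5 and 5.41 CPM), Sema3f, Nrp1 and Robo2 were lower, and Sema5a (21.2 and 59.5 CPM) was higher. Slit2 and Sema3d, whose levels were highest in the members in both libraries, stood at -0.48 and 0.32. Of 12 growth factors, 2 were lower: Kitlg, the ligand of the Kit receptor (18.9 and 6.24 CPM), and Angpt1, the ligand of the Tie receptor of vessels (53.5 and 24.1 CPM). Among 9 chemokine and complement genes, Ccl2 and Cxcl12 (22.5 and 5.83 CPM) were lower, and Serping1 (65.8 and 158 CPM) and Il33 (17.0 and 52.0 CPM), an alarmin cytokine listed with them, were higher, with a median of -0.12.

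Of 21 fibroblast transcription factors, 3 were at least 2-fold lower, against 4.38% of all genes, and 0 higher (median -0.13). Foxd1, a forkhead factor of stromal precursors, was at 384 CPM in WT and 63.7 CPM in Nuc1 (-2.59, -2.83 to -2.36), with -2.48, -1.99 and -1.73 in the other types. Twist1 was at 165 and 74.5 CPM and Sox9 at 12.1 and 2.91 CPM. Factors of meningeal fibroblasts were closer, with Foxc1 at 592 and 424 CPM, Tbx18 at 88.7 and 56.2 CPM and Foxp2 at 172 and 179 CPM. Among 8 measured marker genes of connective tissue sheaths, Clec3b and Sox9 were lower and 0 were higher, with a median of -0.05.

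Lists of cell contraction and glycolysis genes had medians above that of all genes. Of 10 contractile genes, 1 was at least 2-fold lower, Acta2 (13.8 and 6.24 CPM), and Myl9 stood highest at 75.2 and 130 CPM (0.79); the median was 0.17. In glycolysis, 1 of 11 genes was lower, Hk2 (65.2 and 17.1 CPM), the hexokinase that starts the pathway, and Ldha and Pgam1 both stood at 0.48, with the same median of 0.17. The 17 measured genes of cholesterol synthesis and uptake had a median of 0.05. In the class I and interferon list, 1 of 13 was higher (RT1-A1) and 1 lower (Mx2), with a median of 0.00. Of 3 measured cell division genes, 0 passed 2-fold.

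The study asked about the STAT3 pathway in astrocytes, and its genes were read here in the fibroblasts. Of 21 measured genes of that list, 1 was at least 2-fold higher and 2 lower, against 1.03% and 4.38% of all genes, with a median of -0.17. The higher gene was Ptpn1, which encodes the phosphatase PTP1B, at 54.2 CPM in WT and 112 CPM in Nuc1 (1.05, 0.83 to 1.26), with 0.97, 0.91 and 0.09 in the other types. Socs3, an inhibitor induced by STAT3, was at 10.5 and 4.995 CPM and Icam1 at 130 and 64.1 CPM. Il6st, the gp130 receptor subunit, was at 44.3 and 63.3 CPM (0.52, 0.24 to 0.79), and Lepr, the leptin receptor, at 77.7 and 138 CPM (0.83, 0.63 to 1.02). Jak2 (47.1 and 40.8 CPM), Pik3ca (60.7 and 55.8 CPM) and Stat3 itself (156 and 148 CPM) had intervals that included 0.

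Immediate-early genes also respond to tissue dissociation. Of 16 measured genes of the dissociation list, 6 were at least 2-fold lower, against 4.38% of all genes, and 1, Hspa1b, higher, with a median of -0.81. Nr4a1 was at 491 CPM in WT and 104 CPM in Nuc1 (-2.23), Fosb at 322 and 69.9 CPM (-2.20), Atf3 at 160 and 37.5 CPM (-2.09) and Zfp36, which destabilises their messengers, at 789 and 202 CPM (-1.96). Nr4a1 stood at -2.17, -2.76 and -2.45 in the other types. Fos, at 1457 and 1010 CPM, stood at -0.53. How much of the other differences moves with this response was not tested.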

How the data were processed

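Single-cell libraries were made with a droplet 3′ kit. The authors processed the reads with Cell Ranger 3.1.0 and STAR 2.7, per the labels, and deposited raw UMI counts per gene and barcode (25399 genes); the genome build was not given in the sources used here, so no coordinates are printed. The paper's analysis used Seurat. The members and the gene lists were chosen with earlier results of these data known, so no list supports a direction independently.

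From the counts, cells were filtered, gated and assigned as stated in the report, with log1p of counts per 10000 UMIs, Z-scored over fibroblasts of both libraries. UMIs were summed over the members of each library and scaled to CPM. Ratios had 0.5 UMI added, scaled to library size, and genes with at least 100 UMIs over both libraries were counted, 2-fold being the threshold; genes of the rule are given below that minimum too, with their UMIs. Exact 95% intervals were Poisson for CPM, Clopper-Pearson for shares and conditional binomial for ratios; they cover counting error only. Detection was compared after thinning to 5000 UMIs per cell. No test was run, since each genotype had 1 library and cells are not replicates; a count of 0 allows up to 3 counts. The genes named were those of the rule, the markers, 5 genes of the study (Il6st, Pik3ca, Jak2, Lepr and Cryba1), the 10 highest and 10 lowest ratios, the 20 genes with the largest lead over the other types and the genes of the lists; mitochondrial, ribosomal protein, unnamed and repeated symbols (99) were left out of the ranked parts, and listed genes with no row under their symbol, such as Znrf3 and Pecam1, were not analysed here. Alternatives changed the filters, gate, Z-scores, set genes, depth, scaling (TMM of edgeR 4.0.16) and UMI minimum, and left out doublets (Scrublet in scanpy 1.11.5, expected rate 2%), cells with Y-linked UMIs or the highest cell of each gene. Ratios and cell assignment were tested on simulated data. Python 3.11.15, numpy 2.4.6, scipy 1.17.1, scikit-learn 1.9.0 and R 4.3.3 were used. Some genes are not reported here.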

Additional observations from a re-analysis of the deposited data

Results flagged for a closer look

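Opposite signs were looked for among genes of the rule, the markers, genes of the study and genes with the largest leads or ratios. For 7 of these genes the log2 ratio of Nuc1 over WT had opposite signs in the Ccn3 and Rspo3 fibroblasts and another fibroblast type. The counting intervals left out 0 on both sides. Genes named only through the lists, such as Igf1, whose ratios given above also differ in sign between types, were not searched. With 1 library per genotype these differences between types were not tested.

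Ccl2, the monocyte chemokine, stood at -4.08 in the Ccn3 and Rspo3 fibroblasts (163 CPM in WT and 9.57 CPM in Nuc1) and at 2.64 in the Actg2 and Penk fibroblasts (24.9 and 156 CPM); in the Cldn11 and Thbd fibroblasts it stood at -3.40. In WT it was found in 203 of the 662 cells, with 64 of 1476 UMIs in the highest cell. Cd200 stood at 4.30 and at -0.48 in the Inmt and Cyp26b1 fibroblasts, where it was at 45.1 and 32.3 CPM. Cd200 was at 3.44 and 3.16 in the Actg2 and Penk and the Cldn11 and Thbd fibroblasts. Reg3b stood at 2.83, at 2.59 and 2.93 in those same types and at -0.70 in the Inmt and Cyp26b1 fibroblasts, and 84 of its 377 Nuc1 UMIs were in 1 cell.

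Among genes of the rule, Cyp26b1, which breaks down retinoic acid, stood at 4.25 in the Ccn3 and Rspo3 fibroblasts (7 UMIs in WT and 39 in Nuc1, under the minimum of 100) and at -1.52 in the Cldn11 and Thbd fibroblasts. Thbd stood at 0.60, against -0.31 in the Cldn11 and Thbd and -0.51 in the Inmt and Cyp26b1 fibroblasts, and Penk at 0.49, against -0.70 and -0.36. Igfbp5 stood at -0.51, against 0.61 in the Cldn11 and Thbd fibroblasts. The sets of Thbd, Penk and Cyp26b1 decided which cells each type holds, so their values also carry the assignment.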

How the results depend on the processing

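The shares depended most on how members were called. The WT share of 42.0% was 39.3% with at most 10% mitochondrial UMIs, 34.7% with Z-scores within each library, 24.5% with a lead of at least 0.5 and 39.4% without Ccn3 in the set; the Nuc1 share of 12.7% was 25.1% with Z-scores within each library, 4.35% with a lead of at least 0.5 and 14.7% after thinning to 5000 UMIs. Genes at least 2-fold higher in Nuc1 (78) numbered 132 with Z-scores within each library, 44 after thinning, 272 and 1199 with at least 20 and 1 UMIs, and 47 in members with the Cldn11 and Thbd set second. Genes at least 2-fold lower (333) numbered 213 after thinning and 727 and 2756 with at least 20 and 1 UMIs. In all of these settings more genes were lower than higher. Each kept a UMI minimum over both libraries, which the deeper WT sum tilts towards lower genes. The median log2 ratio was -0.016 with Z-scores within each library, -0.069 with a lead of at least 0.5, 0.0010 with TMM scaling, 0 when centred, -0.084 with at least 1 UMI, -0.067 without cells with Y-linked UMIs, -0.10 without the highest cell of each gene, -0.061 and -0.067 in members with the Cldn11 and Thbd or the Actg2 and Penk set second, and -0.067 with a set mean of at least 0.5. Genes at least 2-fold above every other type numbered 1 (Rspo3) with at most 10% mitochondrial UMIs and 5 with a lead of at least 0.5, which added Mal2 and Slc5a6. Of single genes, Fcrla turned to -1.07 in members with the Actg2 and Penk set second, Cxcl10 to -0.80 with a lead of at least 0.5, and Vcam1 (29 and 18 UMIs) to -0.086 after thinning and -0.14 in members with the Cldn11 and Thbd set second. Of 30 named genes with enough UMIs past 2-fold, between 26 and 30 stayed so under each setting run on them, many of them picked by their ratios in these same cells. Neighbour shares were 72.2% and 72.5% in WT and 34.7% and 34.5% in Nuc1 with 50 neighbours or 10 components. Settings by second set or set mean and those for neighbours were chosen after seeing the data. Thinning left 4939 of 7598 genes with enough UMIs; otherwise the cause was not tested. No paired analysis was possible because there was a single library of WT and a single library of Nuc1, which also left no replicate to leave out. Depth limits genes of low count, since a floor of 3 counts was 1.25 CPM in the Nuc1 members and 0.331 CPM in the WT members.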

Other observations

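Other genes that were at least 2-fold higher in the Nuc1 members, chosen here after their values were seen, were spread over many cells. Clu (clusterin), a secreted chaperone, was at 620 CPM in WT and 2138 CPM in Nuc1 (log2 ratio 1.79, 1.73 to 1.84), with UMIs in 569 of 662 WT and 144 of 152 Nuc1 cells. Ifitm1, an interferon-induced membrane protein, was at 343 and 1066 CPM (1.63) and was found in all 152 Nuc1 cells. Tmem176b was at 47.7 and 175 CPM (1.88), and Dhrs3, which reduces retinal to retinol, at 37.2 and 125 CPM (1.75). Clu, Ifitm1, Tmem176b and Dhrs3 also had ratios above 0 in each of the other fibroblast types, of 0.98 to 2.03 for Clu and 0.65 to 2.69 for Tmem176b. The 5 astrocyte markers summed to 22.5 CPM in the WT members and 66.2 CPM in the Nuc1 members. How much astrocyte RNA adds to these ratios was not tested.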
